A study of Mus musculus with 12 samples.

Results

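The 6 chemokine receptors described are *Ccr1*, *Ccr2*, *Ccr7*, *Ccrl2*, *Cxcr4* and *Ackr3*, found by gene symbol among the 26699 symbols counted. The libraries came from 2 kinds of MHCII+ macrophages sorted out of synovium, the membrane that encloses a joint, of adult wild-type C57BL/6 mice. Before the sort, the whole membrane was cultured for 4 h with vehicle (control) or with CGRP at 100 nM, the calcitonin gene-related peptide that pain-sensing nerve fibres release. The IAIE subset was MHCII+ and lacked CD11c, and the CD11c subset carried both. Each subset had 3 control and 3 CGRP libraries, 12 in all. Every group shares the explant culture, the digestion of the tissue and the sort, and the labels do not say whether the 3 libraries of a group came from separate animals.

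Chemokine receptors are proteins with 7 membrane spans that steer cell movement along gradients of secreted chemokines. CCR1 and CCR2 bring monocytes into inflamed tissue, CCR7 takes dendritic cells along lymphatic vessels to lymph nodes, and CXCR4 holds cells where its ligand CXCL12 is made. ACKR3 and CCRL2 are atypical receptors that do not drive migration through G proteins: ACKR3 takes up and removes CXCL12, and CCRL2 binds chemerin and displays it to other cells. Synovial macrophages of the MHCII+ kind are replenished in part from blood monocytes, which depend on CCR2 to leave the marrow.

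Library totals ran from 2127191 to 5649698 counts, so 3 counts, taken as the floor of detection, were worth between 0.534 and 1.34 CPM, the count relative to library size, scaled by TMM. *Itgax*, which encodes CD11c, averaged 237 ± 29.0 CPM in the CD11c controls and 6.19 ± 4.76 CPM in the IAIE controls (SD, n = 3), and *H2-Ab1*, an MHC class II gene, averaged 10594 ± 886 and 3896 ± 387 CPM. All 12 macrophage markers, among them *Csf1r*, *Adgre1* and *Cd68*, had counts in all 4 groups, with a summed level between 7413 and 15498 CPM per library. In CD11c control libraries 10 of these 12 markers were lower than in IAIE control libraries, and of 9 tested dendritic cell markers 5 were higher and 1 lower, against 10.2% higher and 10.9% lower among all genes tested. The summed neutrophil markers ran from 0.408 to 558 CPM across the libraries and did not follow the groups. All 6 receptors passed the filter on low counts, *Ackr3* only just, with at least 10 counts in 5 of 12 libraries.

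**Figure D1:**
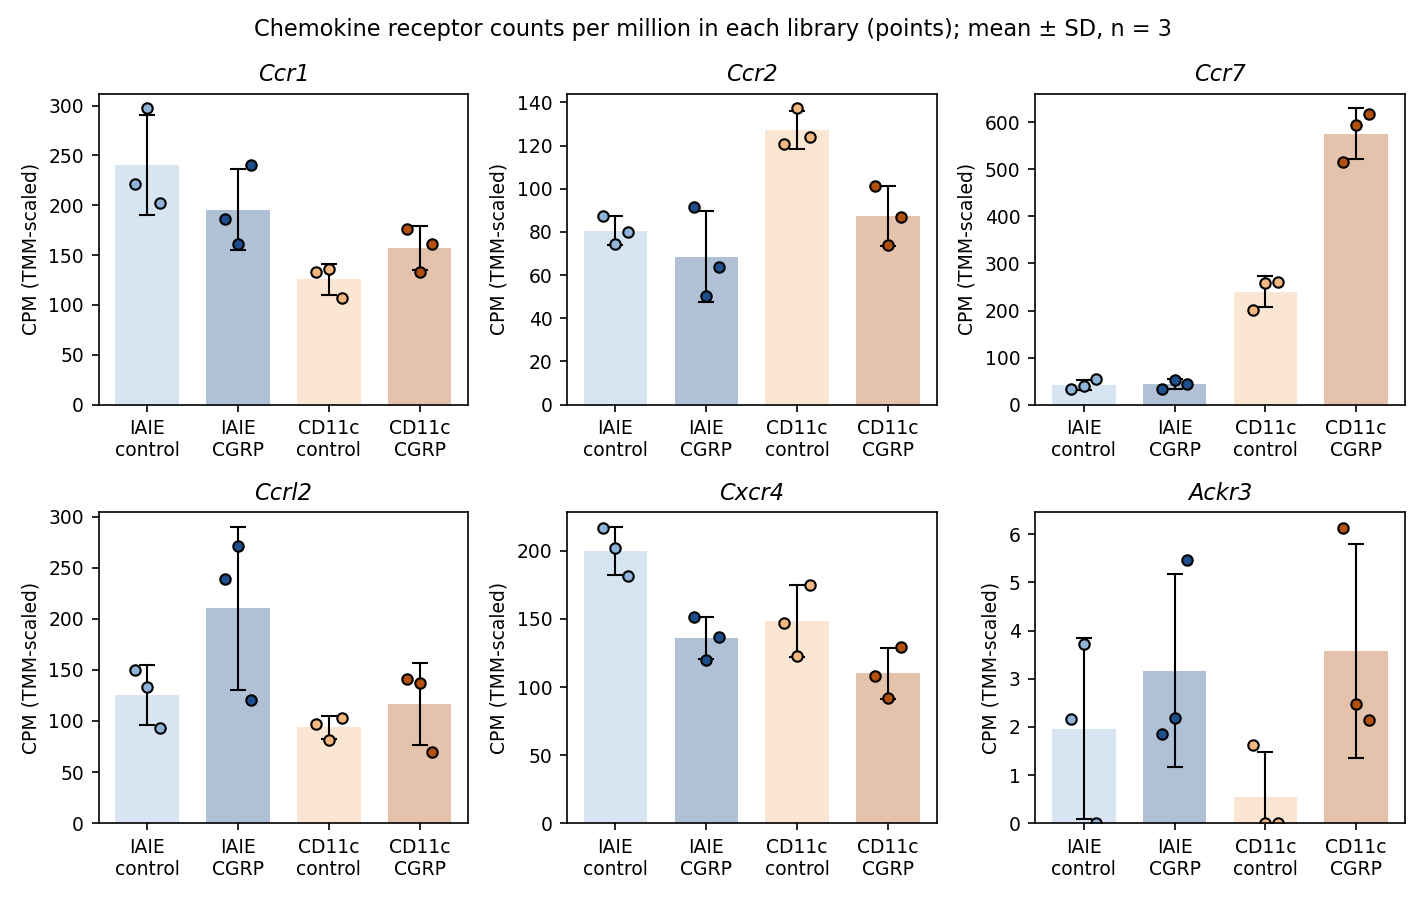
TMM-scaled CPM (linear axis from 0, a different range in each panel) of each receptor in the 4 groups; points are libraries, bars are means and error bars are SD (n = 3). *Ccr7* in the CD11c CGRP libraries lies between 515 and 618 CPM, above every other library, and the *Cxcr4* points with CGRP in the IAIE subset all lie below their controls.

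*Ccr7* separated the 2 subsets most. It lies on the minus strand of chromosome 11 (GRCm38, 99144196 to 99155077), with 3 exon blocks. IAIE control libraries held 33.2, 39.8 and 53.7 CPM of *Ccr7*, and CD11c control libraries held 202, 259 and 260.0 CPM. The lowest CD11c library was thus far above the highest IAIE library. The fitted log2 difference between subsets in control was 2.52 ± 0.19, a 5.75-fold higher level (edgeR adjusted p 2.99e-08, place 22 by p among the 11927 genes tested). With CGRP the IAIE libraries held 33.1, 53.2 and 44.3 CPM of *Ccr7*, overlapping their controls. The CD11c libraries held 515, 594 and 618 CPM with CGRP, all above their controls. *Ccr7* therefore rose 2.39-fold with CGRP in CD11c cells (log2 1.26 ± 0.17, edgeR adjusted p 5.32e-05), while in IAIE cells the difference was 0.06 ± 0.19 (edgeR adjusted p 0.903), with a 95% interval from -0.34 to 0.46. The subsets then stood 13.2-fold apart with CGRP (log2 3.72 ± 0.19, edgeR adjusted p 2.95e-10), the third smallest p of all genes.

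The difference between the 2 CGRP effects on *Ccr7*, the interaction, was 1.20 ± 0.26 on the log2 scale (95% interval 0.66 to 1.74). Its unadjusted p was 1.75e-04, place 31 of all genes, and its adjusted p of 0.0675 in edgeR did not pass the threshold of 0.05. In DESeq2 the same interaction passed (adjusted p 0.00321) and in limma-voom it did not (adjusted p 0.167). Over the 12 fits that each left out 1 library it lay between 0.97 and 1.36, and it passed in the fit without IAIE control replicate 1 (adjusted p 0.0420). The rise in CD11c cells passed in all 12 of those fits. It did not pass a test against a minimum log2 change of 1.

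Genes of the mature dendritic cell programme, the set switched on when a dendritic cell matures and moves to the lymph node, were counted beside *Ccr7*, itself part of that programme. In control libraries 12 of 15 tested genes of this list were higher in CD11c than in IAIE cells and 0 lower, and with CGRP 13 of 15 were higher and 0 lower, where 10.2% and 8.36% of all genes were higher. Their summed level in CD11c cells was 2799 to 3015 CPM in control and 3336 to 3660 CPM with CGRP. With CGRP 7 of the 15 rose and 1 fell in CD11c cells, against 6.29% and 4.59% of all genes, with a median log2 difference of 0.54 against 0.00 over all genes tested. *Cd274*, which encodes the checkpoint ligand PD-L1, rose by 1.33 ± 0.16 in CD11c cells, *Pdcd1lg2*, which encodes PD-L2, by 1.83 ± 0.33 and *Cacnb3*, a calcium channel subunit, by 2.93 ± 0.50 on the log2 scale. *Cacnb3* had 0 counts in every IAIE control library. Other classic members did not rise past the threshold in CD11c cells. *Fscn1*, which bundles actin, differed by -0.40 and *Ccl17* by -0.03, neither past the threshold, and *Cd83* fell by 0.56. In IAIE cells, where *Ccr7* stayed near 40 CPM, 4 of the 15 rose and 1 fell, against 5.32% and 3.89% of all genes. *Cd274* changed by 2.07 ± 0.16, *Ccl22* by 3.81 ± 0.48 and *Cd83* by -0.78 ± 0.14. The dendritic cell identity markers, such as *Flt3* and *Irf4*, went the other way from *Ccr7* in the CD11c subset, where 4 of 9, these included, fell with CGRP and their sum went from 860–902 to 399–434 CPM. The part of these cells in the *Ccr7* level was not tested.

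Calls between CGRP and control libraries were few for the 6 receptors and near the share over all genes. In IAIE cells 1 of the 6 receptors passed the threshold, against 9.21% of all genes tested. In CD11c cells 1 of 6 passed, *Ccr7* itself, against 10.9%. DESeq2 and limma-voom each called 1 in IAIE and 2 in CD11c cells. The receptor called in IAIE cells was *Cxcr4* (chromosome 1, 128588199 to 128592293, minus strand). IAIE control libraries held 217, 202 and 181 CPM of *Cxcr4*, and IAIE CGRP libraries 151, 120.0 and 137 CPM. The highest CGRP library was below the lowest control, and *Cxcr4* fell to 0.680 of its control level (log2 -0.56 ± 0.16, edgeR adjusted p 0.0311). Of the other 5 receptors in IAIE cells 0 had groups that did not overlap, a pattern seen in 24.9% of all genes in this comparison.

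*Cxcr4* pointed the same way in CD11c cells without passing. There the control libraries held 147, 123 and 175 CPM and the CGRP libraries 108, 92.1 and 129.7 CPM, so 1 library overlapped. The log2 difference was -0.43 ± 0.16 (edgeR adjusted p 0.0956, 95% interval -0.76 to -0.10), and the interaction was 0.13 ± 0.22 with an interval from -0.34 to 0.60. The call in IAIE cells was lost in 5 of the 12 fits without 1 library, namely without IAIE control replicate 1 or 2, IAIE CGRP replicate 2 or 3, or CD11c CGRP replicate 1, with adjusted p-values up to 0.154 and differences from -0.62 to -0.47 over the 12 fits. It was also lost when every gene with at least 1 count was tested (-0.48, edgeR adjusted p 0.0543). Markers of B cells, which carry much CXCR4, were lower beside it, and so were dendritic cell markers. The B cell sum was 191 to 319 CPM in IAIE control and 86.3 to 144 CPM in IAIE CGRP libraries. Of 8 markers 1 was called lower, against 3.89% of all genes. In CD11c cells the B cell sum was 40.5 to 59.6 CPM in control and 11.9 to 22.2 CPM with CGRP. The dendritic cell sum was 373 to 391 CPM in IAIE control and 199 to 218 CPM in IAIE CGRP libraries, with 3 of 9 tested called lower. The endothelial sum went the other way in these libraries, from 18.9–24.2 to 26.0–47.6 CPM. The part of these cells in the *Cxcr4* level was not tested, and in such bulk samples fewer cells of a type and less RNA per cell cannot be told apart.

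*Ccrl2* (chromosome 9, 111054486 to 111057519, minus strand) had the largest CGRP difference of the well-detected receptors in IAIE cells, with a spread to match. IAIE control libraries held 149.5, 133 and 93.1 CPM and IAIE CGRP libraries 239, 272 and 120.1 CPM. CGRP replicates 1 and 2 were above all controls and replicate 3 was among them. The log2 difference was 0.74 ± 0.27 (1.67-fold, edgeR adjusted p 0.101, 95% interval 0.17 to 1.30). It passed without IAIE CGRP replicate 3 (1.03, adjusted p 0.0121) and without CD11c CGRP replicate 3 (0.76, adjusted p 0.0473). It also passed when every gene with at least 1 count was tested (0.81, adjusted p 3.64e-05), a fit with a smaller SE of 0.16. The difference did not pass in DESeq2 (adjusted p 0.179) or limma-voom (adjusted p 0.109). In CD11c cells the control libraries held 97.1, 81.1 and 103 CPM and the CGRP libraries 142, 137 and 69.9 CPM. Replicate 3 was again the low one, and the difference of 0.31 ± 0.27 did not pass (edgeR adjusted p 0.581). Between subsets, *Ccrl2* was lower in CD11c than in IAIE cells with CGRP (log2 -0.86 ± 0.27, edgeR adjusted p 0.0326), although the groups overlapped. This call was lost in DESeq2 (adjusted p 0.0911), with only the compared libraries (adjusted p 0.0599), and without IAIE CGRP replicate 1 (0.117), IAIE CGRP replicate 2 (0.191) or CD11c CGRP replicate 3 (0.176). In control the 2 subsets differed by -0.42 ± 0.27 (edgeR adjusted p 0.313).

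*Ccrl2* and *Cxcr4*, the receptors with the largest differences of opposite sign among the well-detected ones in IAIE cells, are shown with the 250 bases before their RefSeq starts (GRCm38.p6, minus strand in both, written 5′ to 3′). Of the 6 receptors 5 had such an entry, and *Ccrl2* had 3 starts, of which the most upstream is shown. The windows are chr9:111057519-111057768 and chr1:128592300-128592549, and capitals mark matches to the motifs searched.
*Ccrl2*: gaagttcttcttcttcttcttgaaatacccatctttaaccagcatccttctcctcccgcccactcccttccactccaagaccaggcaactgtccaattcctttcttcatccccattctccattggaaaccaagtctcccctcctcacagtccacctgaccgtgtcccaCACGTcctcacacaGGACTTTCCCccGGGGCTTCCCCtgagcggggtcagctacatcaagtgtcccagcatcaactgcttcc
*Cxcr4*: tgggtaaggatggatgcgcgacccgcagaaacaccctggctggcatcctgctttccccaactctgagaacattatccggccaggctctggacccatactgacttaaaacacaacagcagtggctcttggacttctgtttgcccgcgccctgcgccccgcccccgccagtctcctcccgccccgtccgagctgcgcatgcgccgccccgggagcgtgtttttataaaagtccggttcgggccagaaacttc
The 5 motifs searched on both strands were the cAMP response half-site TGACG, the ACGTG form of the hypoxia response core, the AP-1 motif TGANTCA, a loose form of the kappa-B motif and the interferon-stimulated response element. Other forms of the hypoxia core, such as GCGTG, were not searched. The *Ccrl2* window held ACGTG once, on the other strand, 82 bases before the start. It held the kappa-B form 3 times, 68, 56 and 55 bases before the start, the last 2 overlapping each other. In the *Cxcr4* window 0 of the 5 motifs matched. Among 32851 promoter windows of the same length, 17.8% held TGACG, 16.6% ACGTG, 6.75% TGANTCA, 45.8% the kappa-B form and 2.98% the interferon element, so most are common. The windows of the other 2 *Ccrl2* starts overlap, and both held the same single TGACG site and the same single ACGTG site. The *Ccr1* window held the kappa-B form once, and the *Ccr2* and *Ackr3* windows held 0 matches.

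*Ccr1* and *Ccr2*, which lie in one gene cluster on chromosome 9 (123962124 to 123968692, minus strand, and 124101950 to 124113557, plus strand), differed between the subsets in opposite directions in control. IAIE control libraries held 222, 297 and 202 CPM of *Ccr1*, and CD11c control libraries 133, 136 and 107 CPM. The groups did not overlap, and *Ccr1* was at 0.521 of the IAIE level in CD11c cells (log2 -0.94 ± 0.18, edgeR adjusted p 6.77e-04). For *Ccr2* the IAIE control libraries held 87.5, 74.3 and 80.1 CPM and the CD11c control libraries 121, 137 and 124 CPM. Every CD11c library was above every IAIE library, and *Ccr2* was 1.58-fold higher (log2 0.66 ± 0.19, edgeR adjusted p 0.0156), a call lost without IAIE control replicate 2 (adjusted p 0.0574). *Ccr2* shares 3.48% of its 31-base transcript words with other genes. With *Ccr7*, this made 3 of 6 receptors called between subsets in control, against 21.2% of all genes (10.2% higher, 10.9% lower), and 4 of 6 with groups that did not overlap, against 34.2% (16.7% higher, 17.5% lower). The fourth was *Cxcr4*, lower in all 3 CD11c libraries (log2 -0.43 ± 0.16, edgeR adjusted p 0.0616).

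Neither subset difference passed with CGRP. *Ccr1* stood at 186, 161 and 240.0 CPM in IAIE and at 176, 133 and 161 CPM in CD11c CGRP libraries, so the groups touched (log2 -0.32 ± 0.17, edgeR adjusted p 0.253). *Ccr2* stood at 91.6, 50.3 and 63.9 CPM in IAIE and at 101, 73.8 and 87.0 CPM in CD11c CGRP libraries (log2 0.35 ± 0.19, edgeR adjusted p 0.230), a difference of 0.61 that passed without IAIE CGRP replicate 1 (adjusted p 0.0318). Within CD11c cells all 3 CGRP libraries were below all controls for *Ccr2*, the CCL2 receptor of monocytes, at a log2 difference of -0.54 ± 0.18. That difference just missed the threshold in edgeR (adjusted p 0.0672), passed in DESeq2 (0.0382) and limma-voom (0.0367), and reached 0.256 without CD11c CGRP replicate 2. In IAIE cells it was -0.24 ± 0.19 (edgeR adjusted p 0.527). *Ccr1* differed with CGRP by -0.30 ± 0.17 in IAIE (edgeR adjusted p 0.343) and by 0.33 ± 0.18 in CD11c cells (edgeR adjusted p 0.297). Its interaction of 0.62 ± 0.25 had an unadjusted p of 0.0205 and an adjusted p of 0.451. Summed monocyte markers were at 1577 to 2019 CPM in IAIE control and at 407 to 539 CPM in CD11c control libraries. They lay on the side of *Ccr1* and on the other side from *Ccr2*, as did the B cell sum. Of 7 monocyte markers tested 1 was called lower, against 10.9% of all genes. The dendritic cell sum lay on the side of *Ccr2*, at 373 to 391 CPM in IAIE control and 860 to 902 CPM in CD11c control libraries. It was lower, like *Ccr2*, in CD11c CGRP libraries, at 399 to 434 CPM. The part of these cells in the levels of the 2 receptors was not tested. Across CGRP libraries of the 2 subsets 2 of 6 receptors were called, *Ccr7* and *Ccrl2*, against 16.9% of all genes (8.36% higher, 8.51% lower), and 1 of 6 had groups that did not overlap, against 34.8% (17.8% higher, 17% lower).

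*Ackr3* (chromosome 1, 90203980 to 90216751, plus strand) was close to the floor throughout. IAIE control libraries held 7, 13 and 0 counts and IAIE CGRP libraries 7, 9 and 29 counts. CD11c control libraries held 4, 0 and 0 counts and CD11c CGRP libraries 32, 10 and 12 counts. In CD11c cells all CGRP libraries were thus above all controls, 3.58 ± 2.22 against 0.544 ± 0.942 CPM. The log2 difference of 3.04 ± 1.20 did not pass (edgeR adjusted p 0.123, 95% interval 0.53 to 5.56). *Ackr3* passed the count filter only through its high libraries. Without CD11c control replicate 1 both remaining controls are at 0 counts, so no fold is given for that fit. With *Ccr7* above and *Ccr2* below, 3 of 6 receptors had CGRP and control groups that did not overlap in CD11c cells. Among all genes this share was 29.2% (15.4% higher, 13.8% lower). The place of *Ackr3* in this count is not independent of the count filter, so the count is not read as a trait of the receptors. Stromal markers rose in the CD11c CGRP libraries. The summed mural cell markers were at 26.4 to 32.6 CPM in CD11c control and at 56.4 to 369 CPM in CD11c CGRP libraries. Of 7 tested, 6 were called higher, against 6.29% of all genes, and *Tagln*, *Des* and *Kcnj8* were at 0 in the controls. Fibroblast markers went from 209–279 to 463–772 CPM, with 3 of 8 called higher, against the same 6.29% of all genes. Endothelial markers overlapped, at 21.0 to 228 CPM in CD11c control and 24.3 to 134 CPM in CD11c CGRP libraries. Of 9 tested, 1 was called higher. The 228 CPM was in CD11c control replicate 1, the only CD11c control library with *Ackr3* counts. The part of these cells in the *Ackr3* counts was not tested.

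**Figure D2:**
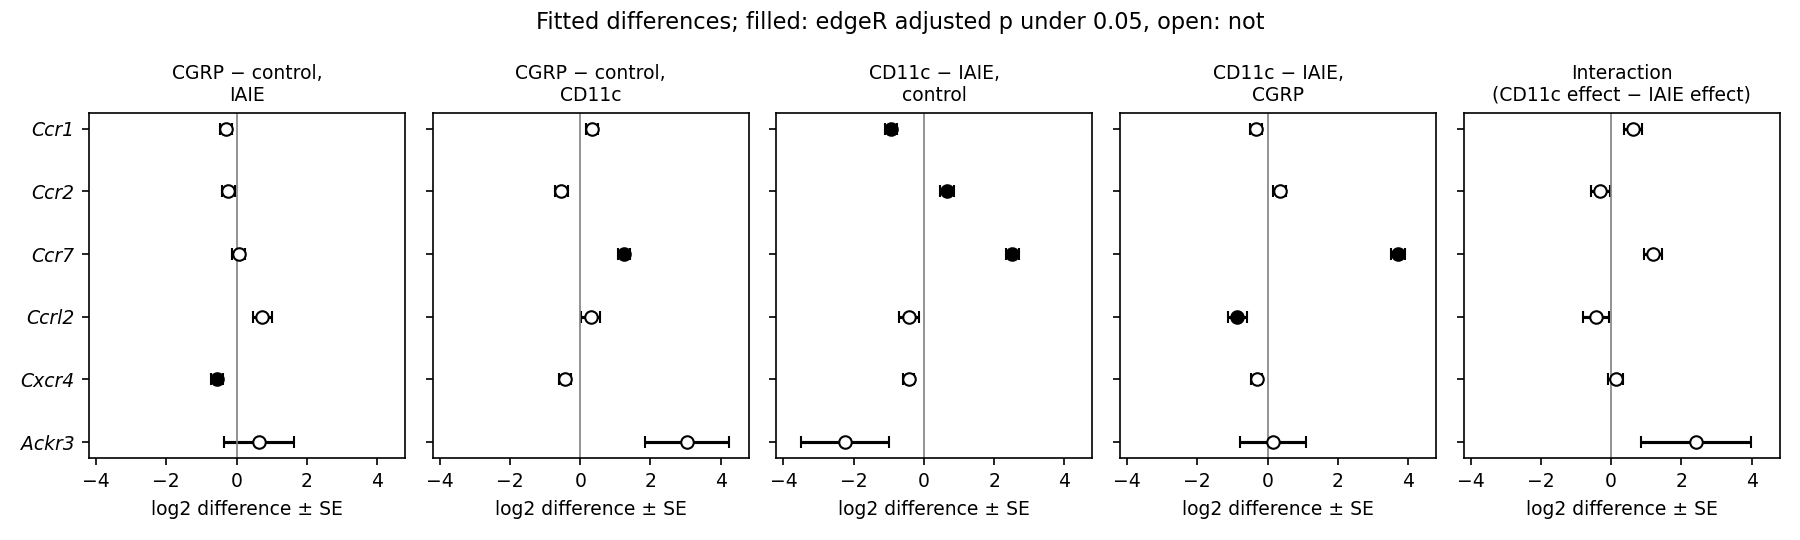
Fitted log2 differences ± SE (edgeR) of the 6 receptors in the 5 comparisons; filled circles have an adjusted p under 0.05 and the vertical line marks no difference. *Ccr7* is filled in 3 panels at 1.26, 2.52 and 3.72, and *Ackr3* has the widest error bars.

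For the interaction, 0 of 6 receptors passed in edgeR, against 0.151% of all genes (18 genes; 0.134% higher and 0.0168% lower). At an unadjusted p under 0.05 there were 2, *Ccr1* and *Ccr7*, and DESeq2 called 1 and limma-voom 0. The comparisons share libraries, each control group serving both a CGRP comparison and a subset comparison, so their values are not independent of each other.

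Levels of different receptors were compared per length, as RPKM (CPM divided by the summed exon length in kb). In IAIE control cells the order was *Cxcr4* at 111 ± 9.80, *Ccr1* at 84.8 ± 17.8, *Ccrl2* at 48.2 ± 11.2, *Ccr7* at 21.4 ± 5.29, *Ccr2* at 11.9 ± 0.980 and *Ackr3* at 0.587 ± 0.559 RPKM (SD, n = 3). Only *Cxcr4* and *Ccr1* overlapped among neighbours in this order. *Ccr2* had more CPM than *Ccr7* in these libraries, so the order of these 2 rests on the exon lengths used, 6760 and 1978 bases. With CGRP the first 3 of the IAIE order were *Ccrl2* at 80.9 ± 30.7, *Cxcr4* at 75.3 ± 8.61 and *Ccr1* at 69.1 ± 14.2 RPKM, none of which was separated from its neighbour. In CD11c control cells *Ccr7* led at 121 ± 16.9 RPKM, followed by *Cxcr4* at 82.1 ± 14.5, *Ccr1* at 44.3 ± 5.62, *Ccrl2* at 36.1 ± 4.38, *Ccr2* at 18.8 ± 1.29 and *Ackr3* at 0.162 ± 0.281 RPKM. *Ccr1* and *Ccrl2* overlapped there. In CD11c CGRP cells *Ccr7* reached 291 ± 27.3 RPKM, while *Cxcr4*, *Ccr1* and *Ccrl2* overlapped in a chain at 60.9 ± 10.4, 55.4 ± 7.71 and 44.7 ± 15.4 RPKM. The share of *Ccr7* in the summed RPKM of the 6 receptors was 7.87% ± 2.77 (control) and 8.57% ± 2.14 (CGRP) for the IAIE subset, and 40.0% ± 4.14 (control) and 62.4% ± 4.35 (CGRP) for the CD11c subset. Without *Ccr7*, the summed CPM of the other 5 was 648 ± 81.2, 614 ± 51.9, 496 ± 16.6 and 474 ± 51.9 in the same order, so the rise of the whole set in CD11c cells, from 736 ± 34.1 to 1050 ± 17.8 CPM, lay in *Ccr7*.

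**Figure D3:**
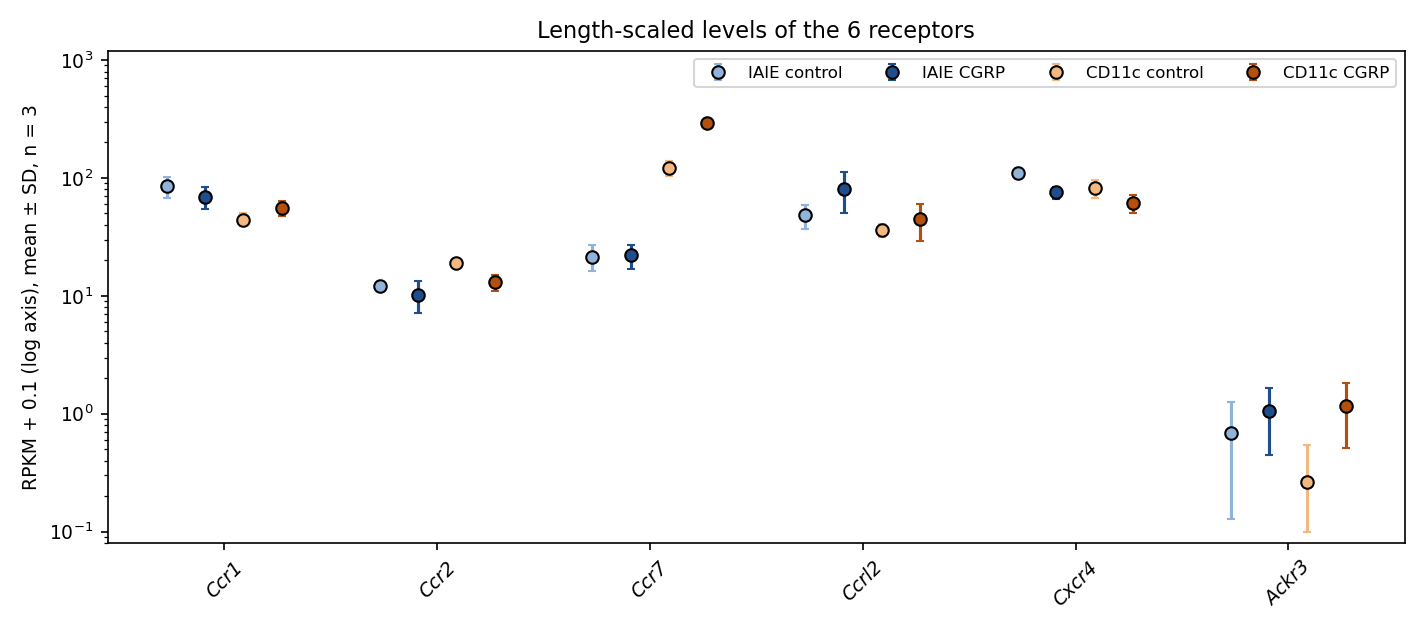
Mean RPKM + 0.1 ± SD (log axis, n = 3) of the 6 receptors in the 4 groups; bars that would reach below the offset end there. *Ccr7* in CD11c cells has the highest means of the plot, 121 RPKM in control and 291 RPKM with CGRP, and *Ackr3* lies lowest in every group.

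Further chemokine receptors were also counted. *Cx3cr1*, the fractalkine receptor that marks lining macrophages, fell with CGRP in IAIE cells from 17.4 ± 2.45 to 5.38 ± 1.46 CPM (log2 -1.68 ± 0.39, edgeR adjusted p 0.00833). It was lower in CD11c than in IAIE cells in control (-2.08 ± 0.40, edgeR adjusted p 9.28e-04). *Cxcr2*, a neutrophil receptor, was called lower in CD11c control cells (-2.82 ± 0.98, edgeR adjusted p 0.0476), a call kept in 5 of 9 other fits and in 4 of 12 fits without 1 library. *Ccr3*, *Ccr9*, *Cxcr5* and *Xcr1*, the last a receptor of cross-presenting dendritic cells, passed in none of the 5 comparisons. A further 10 receptors were at or near the floor, with at most 15 counts in any library.

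The ligands were measured in the same macrophages, although chemokines also come from other cells of the joint. Of 14 listed, 12 were among the counted symbols (*Ccl19* and *Ccl21a*, the *Ccr7* ligands, were not matched) and 11 passed the filter. With CGRP 5 of 11 rose and 1 fell in IAIE cells, and 6 rose and 0 fell in CD11c cells, against 5.32% higher and 3.89% lower among all genes in IAIE and 6.29% and 4.59% in CD11c cells. The median log2 difference was 0.80 in IAIE and 1.39 in CD11c cells, against -0.02 and 0.00 over all genes.

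*Ccl3*, *Ccl5* and *Ccl9*, ligands of CCR1, rose in both subsets. The mean of *Ccl3* was 428 ± 4.45 CPM without and 789 ± 201 CPM with the peptide in IAIE cells (log2 0.88 ± 0.20, edgeR adjusted p 0.00654). For CD11c cells the means were 113 ± 5.08 and 296 ± 96.2 CPM (1.39 ± 0.20, edgeR adjusted p 1.16e-04). *Ccl5* rose by 1.85 ± 0.40 and 1.92 ± 0.39, and *Ccl9* by 0.80 ± 0.13 and 0.52 ± 0.13 on the log2 scale. *Ccl6*, also a CCR1 ligand, differed by 0.31 ± 0.16 and -0.09 ± 0.16 and did not pass. Of the CCR2 ligands, *Ccl2* fell in IAIE cells from 1015 ± 124 to 587 ± 29.3 CPM (-0.79 ± 0.19, edgeR adjusted p 0.0125), and in CD11c cells, where it was much lower at 212 ± 64.4 CPM in control, it differed by -0.23 ± 0.20 (edgeR adjusted p 0.557). *Ccl7* and *Ccl12* did not pass with CGRP in either subset. In control *Ccl2*, *Ccl7* and *Ccl12* were lower in CD11c than in IAIE cells, by -2.27 ± 0.20, -2.62 ± 0.31 and -3.28 ± 0.45 on the log2 scale, the opposite side from *Ccr2*.

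*Adm*, which encodes adrenomedullin, a peptide of the CGRP family that ACKR3 also binds, rose from 12.7 ± 3.77 to 37.2 ± 4.31 CPM in IAIE cells (log2 1.53 ± 0.26, edgeR adjusted p 6.97e-04). Its means in the other subset were 4.54 ± 0.836 and 28.8 ± 4.02 CPM (2.69 ± 0.29, edgeR adjusted p 5.05e-06). *Cxcl12*, the ligand of CXCR4 and ACKR3, had at most 3 counts in each CD11c control library and 8 to 19 counts with CGRP, at least 3.28-fold higher (edgeR adjusted p 0.0217). That call was kept in 6 of 8 other fits and in 8 of 12 fits without 1 library. The mural and fibroblast markers given beside *Ackr3* moved with *Cxcl12*. In IAIE cells *Cxcl12* stood at 8.58 ± 4.50 CPM in control and 4.43 ± 1.63 CPM with CGRP (-0.96 ± 0.60, edgeR adjusted p 0.381). *Cxcl11*, the other ligand of ACKR3, is annotated in the mouse genome as a polymorphic pseudogene, so its counts need not stand for a working protein. It shares 42.2% of its transcript words with other genes, 40.9% with the overlapping *Gm2673*, and did not pass. *Mif*, a cytokine that also binds CXCR4, rose by 1.68 ± 0.25 and 1.94 ± 0.25, but 60.5% of its words occur in other genes, so its counts are uncertain. *Rarres2*, which encodes chemerin, the ligand of CCRL2, was near the floor, with at most 10 counts in any library.

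**Figure D4:**
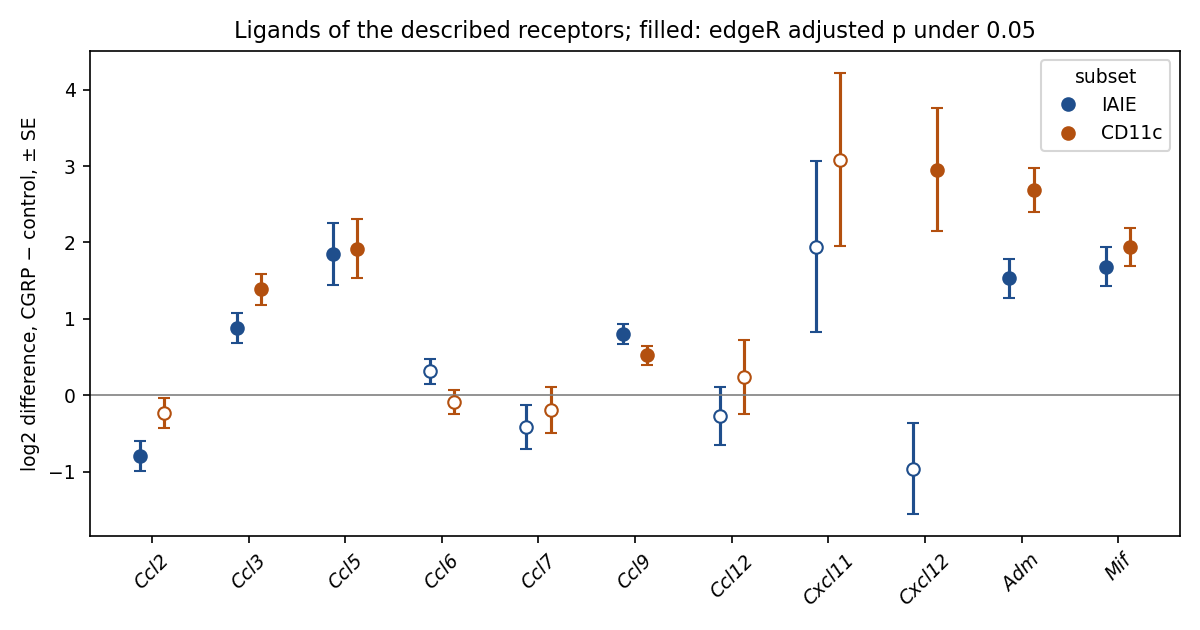
Fitted log2 differences between CGRP and control ± SE (edgeR) of the 11 tested ligands in IAIE and CD11c cells; filled circles have an adjusted p under 0.05. *Ccl3*, *Ccl5*, *Ccl9*, *Adm* and *Mif* are filled above 0 in both subsets, and *Ccl2* is filled below 0 in IAIE cells alone, a difference between subsets whose interaction did not pass (0.56, adjusted p 0.582).

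Among 9 tested receptors for other attractants, 2 fell in IAIE and 2 rose in CD11c cells with CGRP, where 3.89% of all genes fell and 6.29% rose. *C5ar1*, the receptor of complement C5a, fell by 0.51 and *Ptafr*, the receptor of platelet-activating factor, by 0.44 on the log2 scale in IAIE cells. *C3ar1*, the receptor of complement C3a, rose by 0.84 ± 0.11 (edgeR adjusted p 5.04e-05) and *Cmklr1*, the signalling receptor for chemerin, by 0.93 ± 0.27 (edgeR adjusted p 0.0291) in CD11c cells. The *Ptafr* call was kept in 3 and the *Cmklr1* call in 9 of 12 fits without 1 library.

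Of 33 genes that carry or stop the signal below these receptors, 1 rose and 6 fell in IAIE cells, and 2 rose and 6 fell in CD11c cells, with medians of -0.01 and -0.10. Among all genes 5.32% rose and 3.89% fell in IAIE and 6.29% rose and 4.59% fell in CD11c cells, so the rises in this list were no more frequent than elsewhere. *Dock2*, which activates Rac in migrating leukocytes, fell in IAIE (log2 -0.85 ± 0.14, edgeR adjusted p 4.83e-04) and in CD11c cells (-1.78 ± 0.14, edgeR adjusted p 2.10e-07), and the difference between these falls, -0.92 ± 0.19, just missed the threshold (edgeR adjusted p 0.0580). *Grk3*, a kinase that desensitises activated receptors, fell in IAIE cells (-1.58 ± 0.26, edgeR adjusted p 4.99e-04), and so did *Prex1*, another Rac activator (-0.52 ± 0.12, edgeR adjusted p 0.00783). In CD11c cells *Vav1* fell (-0.80 ± 0.16, edgeR adjusted p 0.00173) and *Rgs16*, which shortens G-protein signalling, rose (4.81 ± 0.83, edgeR adjusted p 5.62e-04). The G-protein subunits *Gnai2*, *Gnai3*, *Gnb1* and *Gnb2* were within 0.23 of no difference in both subsets and did not pass.

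The genes whose log2 CPM followed each receptor most closely over the 12 libraries were sought among 8459 genes. *Ccr7* was followed by *Cnn3* (r = 0.985), *St8sia4* (0.985) and *Pkib* (0.985), *Ccr2* by *Ifngr1* (0.936), *Sh3bgrl3* and *Mki67*, and *Ccr1* by *Steep1* (0.922), *Gimap6* and *Runx1*. For *Ccrl2* they were *Nudcd3* (0.932), *Peli1* and *Tnfrsf1a*, for *Cxcr4* *Atp13a2* (0.931), *Ttc27* and *Neurl3*, and for *Ackr3* *Epn2* (0.858), *Clptm1* and *Stac2*. By rank correlation 2 of the 3 genes were the same for *Ccr7* and 0 of 3 for each of the other receptors. All 12 points share the group structure, so a gene that differs between groups in the same way scores high. Between receptors, r ran from -0.68 for *Ccr1* and *Ccr7* to 0.51 for *Ccr1* and *Ackr3*, so the 6 did not move as one group.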

How the data were processed

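RNA was sequenced from 12 libraries of sorted synovial macrophages (SMARTer stranded total RNA kit, paired reads). The authors removed the first 3 bases of read 1, trimmed with Trim Galore, checked quality with FastQC, aligned to mm10 with HISAT2 and counted reads per gene symbol with featureCounts. The deposited values are raw counts, not normalized. Tool versions, the annotation and the strand setting are not given in the sources used here. A combined table repeats the 12 libraries, and 6 further columns, which no label maps to a sample, were not used.

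The members, gene lists and tests were chosen with earlier results of these data known. From the counts, 11927 of 26699 genes passed filterByExpr (minimum count 10, minimum total 15). A single edgeR (4.0.16, R 4.3.3) quasi-likelihood fit with TMM scaling and a mean per group over all 12 libraries gave 5 two-sided contrasts, with Benjamini-Hochberg adjustment over all tested genes and a threshold of 0.05. CPM were scaled by TMM, and RPKM used exon lengths of GENCODE M21 (GRCm38). Log2 differences are estimate ± SE. Alternatives were DESeq2 (1.42.0), limma-voom (3.58.1), scaling by RLE or upper quartile, 2 other filters, 2 kinds of replicate block, a surrogate variable (sva 3.50.0), fits to only the libraries compared, thinning to the lowest total, 2 other thresholds, and leaving out each library in turn. The edgeR fit was tested on simulated data.

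The text names the members, their ligands, the sort markers and the other tested chemokine receptors whatever their values (a result under this rule is not reported here), up to 3 genes per remaining list and CGRP contrast with the smallest adjusted p past the threshold, and the 3 genes most like each member by Pearson's r (prior count 2, mean of at least 5 CPM, predicted genes left out). *Fscn1*, *Ccl17*, *Cd83*, G-protein subunits and cell type markers were named after their values were seen. As the labels do not say what separates replicates, p-values measure the spread between these libraries, which may be technical. Floors cover counting error only, since reads without molecular identifiers are not independent molecules.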

Additional observations from a re-analysis of the deposited data

How the results depend on the processing

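Over the 6 receptors, 5 comparisons and all other fits, 661 values kept their direction and side of the threshold, 17 lost a call, 31 gained one and 10 reversed, all 10 for differences that had not passed. The reversed values were those of *Ackr3* between subsets with CGRP (-0.17 with the replicate block, -0.62 with 1 surrogate variable, and -0.10, -0.04 and -0.47 without IAIE CGRP replicate 1 or 2 or CD11c CGRP replicate 1), *Ackr3* in IAIE cells (-0.013 without IAIE CGRP replicate 3), *Ccr7* in IAIE cells (-0.08 and -0.10 without IAIE control replicate 1 or IAIE CGRP replicate 2) and the *Cxcr4* interaction (-0.05 and -0.060 without CD11c control replicate 2 or CD11c CGRP replicate 3). Without 1 library these 4 differences ran from -0.47 to 0.82, -0.013 to 1.45, -0.10 to 0.28 and -0.060 to 0.23. The cause was not tested.

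In CD11c cells with CGRP 1 receptor was called, and 2 were with upper-quartile scaling, with every gene of at least 1 count, with genes of at least 10 counts in every library, with the replicate block, in the compared libraries alone, in DESeq2, in limma-voom and after thinning, and 3 at an adjusted p of 0.1; the second was *Ccr2*. In IAIE cells 2 were called with the replicate block (*Ccrl2* in addition, adjusted p 0.0361), and with every gene of at least 1 count the 1 called was *Ccrl2* in place of *Cxcr4*. Between subsets in control *Cxcr4* was called in addition with the replicate block (adjusted p 0.0299) and the explant block (adjusted p 0.0326). Between subsets with CGRP 1 was called in the compared libraries alone and in DESeq2. For the interaction 1 (*Ccr7*) was called with every gene of at least 1 count, with the replicate block, with treatment and replicate number as an explant block, in DESeq2 and at an adjusted p of 0.1. Against a minimum log2 change of 1, 0 receptors were called with CGRP in IAIE and CD11c cells and 1 (*Ccr7*) in each subset comparison, and over all genes the counts fell to 79 and 153 with CGRP (from 1099 and 1298), 347 and 277 between subsets (from 2526 and 2012) and 9 for the interaction. The count of 18 genes for the interaction became 171 with every gene of at least 1 count, 5 with the stricter filter, 36 and 52 with the replicate and explant blocks, 97 in DESeq2, 2 in limma-voom and 42 at an adjusted p of 0.1. Without 1 library, the receptors called ran from 0 to 2 in IAIE cells, 1 to 2 in CD11c cells, 1 to 2 between subsets with CGRP and 0 to 1 for the interaction, and the counts over all genes from 722 to 1122 in IAIE cells (722 without IAIE CGRP replicate 2) and from 6 to 29 for the interaction.

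The labels do not say what replicate numbers mark, and deviations of same-numbered libraries over 7161 genes correlated between -0.02 and 0.29. In the CGRP libraries of the 2 subsets r was 0.287, 0.083 and 0.114, with 1 pair under the 0.1 asked of every pair, so the numbers were not taken to pair samples and the blocks stand only here. *Ackr3* could not be tested with the stricter filter, and with 4, 0 and 0 counts in CD11c control libraries its difference is limited by depth.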
